A study of Mus musculus with 18 samples.

Results

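Splenic neutrophils of 26 week old mice were compared with those of 20 week old mice, in 12 of the 18 RNA sequencing libraries of the study. The members were the 12 count columns of the deposited table whose labels give an age of 20 or 26 weeks, with 6 mice and 1 library per mouse at each age. All mice were untreated females of the NZBWF1/J strain, a hybrid of NZB and NZW mice that develops a lupus-like autoimmune disease as it ages. The neutrophils were sorted from the spleen as single DAPI- cells with Ly6B, CD11b and Ly6G on the surface and an intermediate level of Ly6C. Polyadenylated RNA was sequenced from 1 ng of cDNA per library. The 6 libraries of 14 week old mice entered the fit to estimate the spread between mice. They also entered the filter on low counts and the scaling of the libraries, and their levels are not described. Strain, sex and lack of treatment were the same at both ages, and age, disease stage and anything else that differed between the cohorts cannot be told apart.

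Neutrophils are made in the bone marrow in a fixed order of stages. Dividing precursors first make the proteins of primary (azurophilic) granules, then those of secondary (specific) granules, and the non-dividing mature cells last make tertiary granule and secretory vesicle proteins together with the receptors used in tissues. The transcripts of granule proteins decline as the cells mature, while those for the G-CSF receptor, chemoattractant receptors and cytokine receptors increase. In lupus, neutrophils are also known for extracellular traps and for responses to type I interferon.

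The libraries held 8835688 to 12462682 counts at 20 weeks and 5546624 (replicate 5) to 17256379 (replicate 3) at 26 weeks, and 8119 (20 week replicate 3) to 13164 genes per library had a count. The 10 most abundant genes took 9.76 to 17.7% of the counts at 20 weeks and 21.2 to 34.8% at 26 weeks, without overlap. The 20 week replicate 3 stood apart from its group, with a median correlation of 0.756 to the other 20 week libraries against 0.828 to 0.844 for those. Rows of ribosomal RNA took 0.0109 to 0.0497% of the counts at 20 weeks and 0.0588 to 0.546% at 26 weeks, with replicate 5 highest. Levels are given as CPM, counts per 1000000 counts of a library after edgeR's TMM scaling. The sorting markers were present: Itgam, which codes for CD11b, was found between 737 and 1327 CPM at 20 weeks (median 1209) and between 795.9 and 1822 CPM at 26 weeks (median 932.4), and both Ly6g and Ly6c2 were counted in all 12 libraries.

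The table lists 17941 gene symbols. Enough reads for a test were found for 10104, and 1617 of them (16%) differed between the ages at an adjusted p under 0.05 in edgeR's quasi-likelihood test. The calls were even in direction: 811 genes (8.03%) were higher at 26 weeks and 806 (7.98%) were lower. The rises were larger, with a median log2 fold change of 1.26 among the higher genes and -0.98 among the lower genes, against 0.05 over all genes tested. A change of more than 4-fold was found for 172 genes that rose and 30 that fell. In 305 of the called higher genes and 215 of the called lower genes all 6 libraries of one age lay beyond all 6 of the other, and over all tested genes 3.69% separated in this way upward and 2.27% downward. Without 20 week replicate 3 there were 1809 calls (926 higher, 883 lower), and without that library and 26 week replicate 5 there were 1398 (693 higher, 705 lower). The log2 fold change (log2FC) is the fitted value of 26 minus 20 weeks, given ± SE, each adjusted p is edgeR's over the 10104 genes with Benjamini-Hochberg adjustment, and genes under 0.05 are termed called, higher or lower. The p-values measure the spread between these mice.

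**Figure D1:**
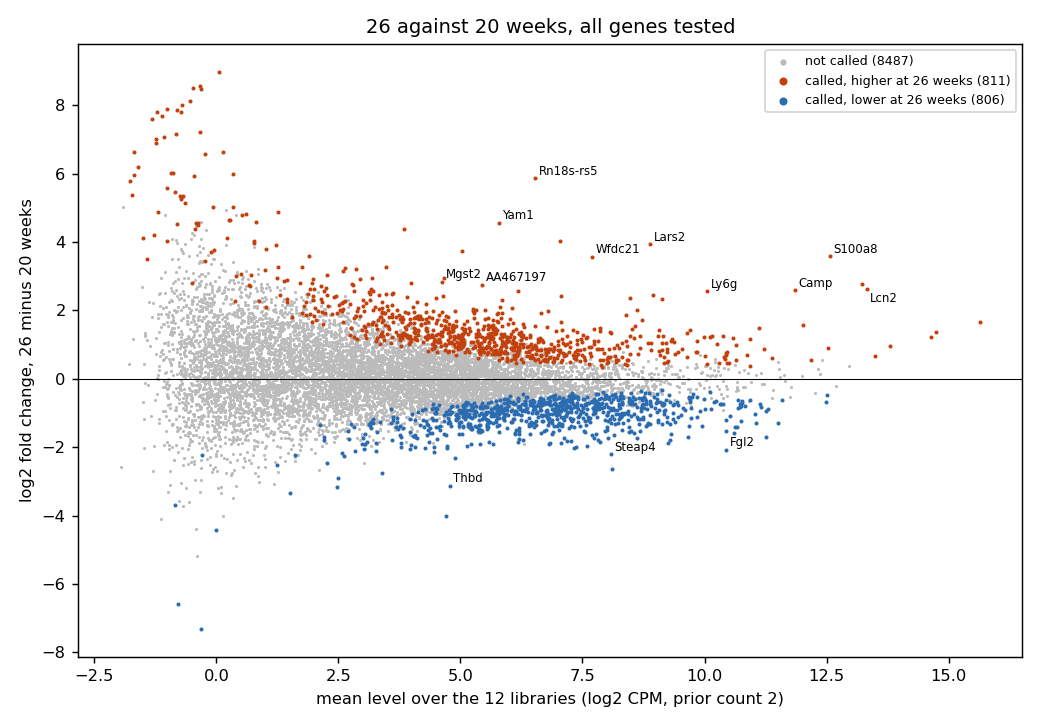
Each point is 1 of the 10104 genes tested, with its mean level over the 12 libraries (log2 CPM) on the horizontal axis and its log2 fold change (26 minus 20 weeks) on the vertical axis; orange points were called higher (811), blue points lower (806), grey points were not called. Lcn2, Camp, S100a8 and S100a9 lie at the upper right, where abundant genes rose, and most called lower genes lie at medium to high levels.

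Calls depended on how abundant and how long a gene was. With the tested genes cut into 5 equal bins by level, 15.5% of the top bin were called higher and 26.7% lower, whereas in the bottom bin 3.22% were higher and 0.247% lower. Genes called higher had a median exon length of 2680 bases and genes called lower of 4730 bases, against 4209 bases for tested genes. In the shortest of 5 bins by length (57 to 2181 bases) 16.4% of genes were called higher and 3.22% lower, while in the longest bin (from 7336 bases) these shares were 4.83% and 8.35%. When the trend of each library with exon length was removed, 2057 genes were called and 17.7% of them were higher, against 50.2% of the calls without it. That correction moved the median of all tested genes from 0.05 to -0.32, and with each library kept at its original scale, 1586 genes were called and 41.7% were higher. RNA quality was not given per library, and its part in the length trend was not tested.

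**Figure D2:**
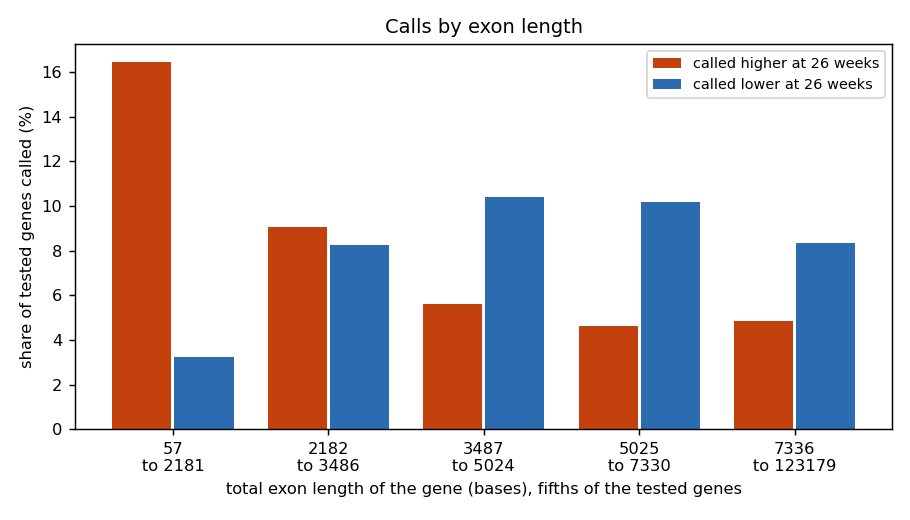
Bars give the share of tested genes called higher (orange) or lower (blue) at 26 weeks in 5 bins of genes by total exon length in bases (horizontal axis). The share called higher is 16.4% in the shortest bin and between 4.63 and 9.05% in the other bins.

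The mice of an age were not alike in the size of the change. Among the 811 called higher genes, 26 week replicate 4 was the lowest of its age in 399 and replicate 3 in 274, while replicate 5 was the highest in 360 and replicate 1 in 264. Among the 806 called lower genes, 26 week replicate 3 was the highest of its age in 433 and replicate 4 in 264. So replicates 3 and 4 lay nearest to the 20 week mice in most called genes. On the other side, 20 week replicate 1 was the highest of its age in 337 of the called higher genes and the lowest in 363 of the called lower genes.

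Among genes of medium to high level, the 12 largest rises were Rn18s-rs5, Yam1, Lars2, S100a8, Wfdc21, Mgst2, S100a9, AA467197, Lcn2, Camp, Ly6g and Orm1. The 12 largest falls were Thbd, Cd74, Steap4, Egr1, Fgl2, Il1rap, Gbp9, Kcnj2, Ivns1abp, Csf1, Il13ra1 and Rab11fip5. All 12 of the rises separated the ages without overlap, and 5 of the falls did so. Over all tested genes these shares were 3.69% upward and 2.27% downward. The ranking rule favours genes that separate, so these counts are a description and no support for a change.

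**Figure D3:**
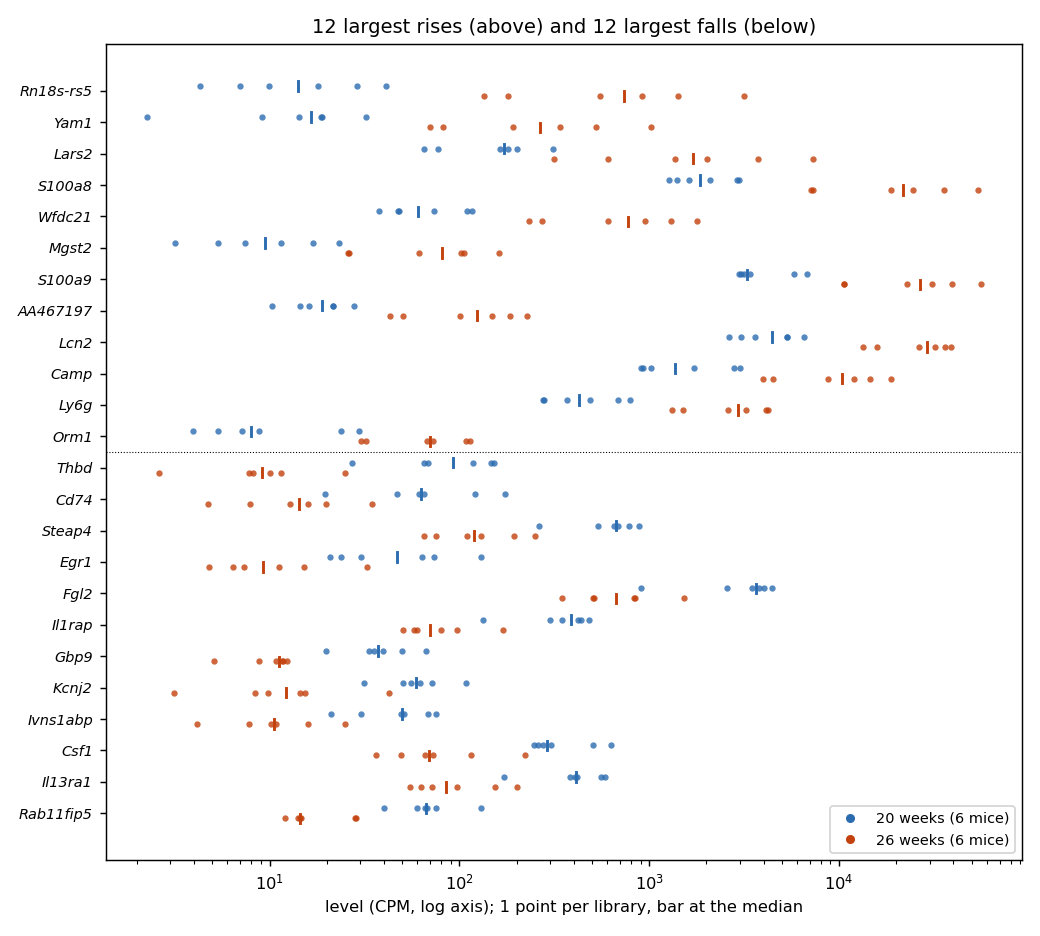
Points are single libraries, with CPM on a log axis, at 20 weeks (blue) and 26 weeks (orange), and vertical bars mark the median of 6 mice. In the 12 genes above the dotted line every 26 week library lies above every 20 week library, as for Lcn2 (13382 to 38826 against 2644 to 6510 CPM), and the 12 genes below it are those with the largest falls.

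Many genes of secondary granule cargo rose. In bulk RNA, a change in the share of cells of a type or stage and a change in RNA per cell cannot be told apart, in any list that follows. The counts of calls in each list stand against 8.03% of all tested genes called higher and 7.98% called lower. These granules carry iron-binding, antimicrobial and matrix-degrading proteins, and 13 of the 21 genes in the list were called higher (61.9%, against 8.03% of all tested genes) and none lower, with a median log2 fold change of 1.11 over the list. Lcn2, which codes for lipocalin 2, a protein that binds bacterial siderophores, was found at 2644 to 6510 CPM at 20 weeks (median 4442) and 13382 to 38826 CPM at 26 weeks (median 29066). Every 26 week library exceeded every 20 week library, with 26 week replicate 3 the lowest of its age (log2FC 2.62 ± 0.27 SE, adjusted p = 3.47e-05). Camp, the gene for the antimicrobial peptide cathelicidin, was found between 906.1 and 2990 CPM at 20 weeks (median 1371) and between 3990 and 18641 CPM at 26 weeks (median 10338). It too was without overlap between the ages (log2FC 2.59 ± 0.39 SE, adjusted p = 0.000368). Ngp (neutrophilic granule protein) was counted at 16751 to 43474 CPM at 20 weeks (median 29829) and 64437 to 119668 CPM at 26 weeks (median 98632). All 6 mice at 26 weeks were above the 20 week mice, with 26 week replicate 3 the lowest (log2FC 1.66 ± 0.25 SE, adjusted p = 0.000338). Lyz2, the gene for lysozyme M, stood between 11753 and 27689 CPM at 20 weeks (median 15724) and between 31278 and 55961 CPM at 26 weeks (median 50704) (log2FC 1.38 ± 0.20 SE, adjusted p = 0.000239), again with no overlap. Ltf, which codes for lactoferrin, stood at 7377 to 35286 CPM at 20 weeks (median 18165) and 28136 to 59893 CPM at 26 weeks (median 41053), and the ages overlapped because 20 week replicate 1 was high (log2FC 1.22 ± 0.29 SE, adjusted p = 0.00714). The acute phase protein gene Orm1 went from a median of 7.95 to 69.8 CPM (log2FC 2.43 ± 0.55 SE, adjusted p = 0.00515), and Ckap4, which codes for a membrane protein of the endoplasmic reticulum, from 443.1 to 1003 CPM (log2FC 1.11 ± 0.16 SE, adjusted p = 0.000265). Not all 13 called genes code for cargo, since Ckap4 and the receptor gene Ltb4r1 are among them. Within the 26 week mice, replicate 3 was the lowest in 8 of the 13 called genes. The count of calls was 9 of 21 after the correction for exon length (11 with the libraries kept at their scale) and 11 of 21 without 20 week replicate 3 and 26 week replicate 5.

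Granule genes are known to share promoter elements bound by C/EBP factors, so the 250 bases before the RefSeq start of each gene (GRCm38.p6) were searched on both strands for TTGCNNAA, a sequence of the C/EBP type. It was present in 4 of the 12 called secondary granule genes with a promoter entry (Lcn2, Ltf, Ngp and Slpi), in 11% of the called higher genes, in 13.2% of the called lower genes and in 9.03% of the tested genes with an entry. Slpi was not otherwise chosen and is named after its match was seen. The motif was 1 of 13 searched, and it was picked for display after the matches were known. A match describes letters, not a bound site. The 100-base windows around it are shown for 3 secondary granule genes that rose and for S100a9, on the strand of each gene and 5′ to 3′, with the motif in capitals:

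Lcn2: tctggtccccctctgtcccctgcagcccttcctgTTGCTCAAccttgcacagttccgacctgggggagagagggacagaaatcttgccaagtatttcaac
Ngp: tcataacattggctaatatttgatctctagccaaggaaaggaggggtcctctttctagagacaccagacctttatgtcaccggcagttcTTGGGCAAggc
Ltf: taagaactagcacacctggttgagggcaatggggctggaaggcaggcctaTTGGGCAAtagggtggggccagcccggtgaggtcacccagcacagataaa
S100a9: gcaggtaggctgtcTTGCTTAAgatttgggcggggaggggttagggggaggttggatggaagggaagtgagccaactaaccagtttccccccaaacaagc

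These windows lie at chr2:32387890-32387989 (minus strand) for Lcn2, chr9:110419708-110419807 (plus strand) for Ngp, chr9:111019167-111019266 (plus strand) for Ltf and chr3:90695872-90695971 (minus strand) for S100a9. Ngp held 2 matches in its 250 bases, of which 1 falls within the window, and the other genes held 1.

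The calprotectin genes rose from already high levels. S100a8 and S100a9 code for the subunits of calprotectin, a zinc-binding protein that makes up much of the neutrophil cytosol, and they are neighbours on chromosome 3 (S100a8 at 90668978 to 90670035, plus strand, S100a9 at 90692632 to 90695721, minus strand). S100a8 was found between 1275 and 2985 CPM at 20 weeks (median 1857) and between 7131 and 53817 CPM at 26 weeks (median 21613). The ages did not overlap, and 26 week replicates 3 and 5 were the lowest and highest of their age (log2FC 3.58 ± 0.42 SE, adjusted p = 8.67e-05). S100a9 was found at 2980 to 6785 CPM at 20 weeks (median 3268) and 10563 to 55710 CPM at 26 weeks (median 26729), with the same lowest and highest 26 week mice (log2FC 2.76 ± 0.36 SE, adjusted p = 0.000124). Of 7 tested S100 genes, 5 were called higher and none lower, with a median log2 fold change of 1.52. The others called were S100a13 (log2FC 2.47 ± 0.49 SE, adjusted p = 0.00205), S100a6 (log2FC 1.37 ± 0.29 SE, adjusted p = 0.00308) and S100a11, chosen after its values were seen (log2FC 1.18 ± 0.27 SE, adjusted p = 0.00528). After the correction for exon length, S100a6 and S100a11 were no longer called and 3 of the 7 were, while 5 were with the libraries kept at their scale. Of 7 tested genes of the stefin family, which inhibit cysteine cathepsins, 3 were called higher: Gm5483 (log2FC 1.77 ± 0.44 SE, adjusted p = 0.00871), BC100530 (log2FC 1.49 ± 0.43 SE, adjusted p = 0.0219) and Cstb (log2FC 0.96 ± 0.26 SE, adjusted p = 0.0153). Reads of these near-identical stefin copies may be split between rows, the ages overlapped in all 3, and none was called after the correction for exon length (1 with the libraries kept at their scale). Only 1 stefin was called without 26 week replicate 5.

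Few primary granule genes were counted. The list has 11 genes in the data. Of these, 5 could be tested and 2 were called higher, Fcnb and Serpinb1a. The product of Serpinb1a is a protease inhibitor and not itself granule cargo. Fcnb, the gene for ficolin B, a lectin of the complement system, stood between 10.8 and 56.9 CPM at 20 weeks (median 22) and between 76.3 and 218.4 CPM at 26 weeks (median 136.7). Its ages did not overlap (log2FC 2.29 ± 0.53 SE, adjusted p = 0.00533). Serpinb1a, which codes for an inhibitor of neutrophil serine proteases, stood at 242.8 to 849.3 CPM at 20 weeks (median 516.8) and 1037 to 1818 CPM at 26 weeks (median 1435), also without overlap (log2FC 1.43 ± 0.26 SE, adjusted p = 0.00124). The list of tertiary granule and secretory vesicle genes moved both ways, with 3 of 14 higher (21.4%), 3 lower (21.4%) and a median of -0.22. In it Wfdc21, a whey acidic protein gene of granulocytes, stood between 37.7 and 115.9 CPM at 20 weeks (median 60.7) and between 231.3 and 1783 CPM at 26 weeks (median 773.8). Every 26 week mouse exceeded every 20 week mouse (log2FC 3.57 ± 0.44 SE, adjusted p = 9.91e-05). Retnlg, which codes for a resistin-like protein of granulocytes, went from a median of 2472 to 6869 CPM (log2FC 1.58 ± 0.31 SE, adjusted p = 0.00193), with overlap. Slc11a1, the gene for a metal transporter of the phagosome, fell from a median of 620.1 to 268.5 CPM (log2FC -1.11 ± 0.18 SE, adjusted p = 0.000657), and Itgal, which codes for the αL integrin chain, fell from 844.7 to 402.5 CPM (log2FC -1.03 ± 0.17 SE, adjusted p = 0.000661). Mmp9, a tertiary granule protease, stood at 6447 to 9331 CPM at 20 weeks (median 6869) and 4781 to 8868 CPM at 26 weeks (median 5974) and was not called (log2FC -0.21 ± 0.15 SE, adjusted p = 0.378).

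Of the genes of the sorting gate, Ly6g and Ly6c2 rose. Ly6g, which codes for the surface protein that defines mouse neutrophils and that was used to sort them, stood between 276.5 and 791.7 CPM at 20 weeks (median 425.8) and between 1312 and 4201 CPM at 26 weeks (median 2919). The lowest 26 week mouse lay above the highest 20 week mouse (log2FC 2.56 ± 0.31 SE, adjusted p = 9.91e-05). Ly6c2, which codes for one form of Ly6C, stood at 110.5 to 282.8 CPM at 20 weeks (median 131.3) and 435 to 1262 CPM at 26 weeks (median 883.3), also with no overlap (log2FC 2.35 ± 0.28 SE, adjusted p = 9.91e-05). Ly6c1 was near the detection limit at both ages (at most 2.5 CPM) and was not called (log2FC 0.55 ± 0.79 SE, adjusted p = 0.706). Itgam did not differ by the test (log2FC -0.05 ± 0.19 SE, adjusted p = 0.902). Whether the sort gates took the same share of cells at both ages is not given, and its part in these levels was not tested. Ly6g and Ly6c2 have close paralogs, so the split of reads between copies is uncertain.

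Some markers of immature neutrophils rose and some of mature neutrophils fell. Of 12 tested genes of the immature list, 5 were called higher (41.7%) and none lower, with a median of 0.87. Among these 5 is Ly6g, the sorting marker described above, so the count is not separate from the sorting gate. Cd24a, which codes for the heat stable antigen CD24, stood between 408.2 and 867.1 CPM at 20 weeks (median 683.5) and between 1037 and 1631 CPM at 26 weeks (median 1442), with no overlap (log2FC 1.09 ± 0.18 SE, adjusted p = 0.000622). Cd63, a granule membrane tetraspanin gene, stood at 247.3 to 386.6 CPM at 20 weeks (median 326.9) and 434.3 to 948.1 CPM at 26 weeks (median 703.5), with no overlap (log2FC 1.06 ± 0.18 SE, adjusted p = 0.000664). Hmgn2, which codes for a nucleosome-binding protein, was called with overlap (log2FC 0.78 ± 0.16 SE, adjusted p = 0.00204). Cebpe, the gene for the transcription factor C/EBPε that drives secondary granule genes, stood between 68.2 and 267.6 CPM at 20 weeks (median 101.2) and between 198.5 and 382.2 CPM at 26 weeks (median 282.6) (log2FC 1.18 ± 0.29 SE, adjusted p = 0.00874). Its ages overlapped through 20 week replicate 1. After the correction for exon length the calls of Cd24a, Hmgn2 and Cebpe were lost, and of these that of Cebpe was also lost when the libraries were kept at their scale. In the mature list 9 of 25 were called lower (36%, against 7.98%) and 2 higher (0 without 20 week replicate 2 or 26 week replicate 1 or 5), with a median of -0.58. The list shares 3 genes (Btg2, Junb and Dusp1) with the immediate early list, and 6 were lower in the fit that left that list out. Csf3r, which codes for the G-CSF receptor, stood at 3418 to 6285 CPM at 20 weeks (median 4118) and 772.3 to 2694 CPM at 26 weeks (median 1234). The highest 26 week mouse, replicate 3, was below the lowest 20 week mouse (log2FC -1.70 ± 0.30 SE, adjusted p = 0.000915). Csf1r, which codes for the M-CSF receptor, is also a monocyte marker and stood between 258.8 and 656.5 CPM at 20 weeks (median 496.4) and between 79.4 and 225.6 CPM at 26 weeks (median 115) (log2FC -1.85 ± 0.33 SE, adjusted p = 0.00105). In all 9 called lower genes 26 week replicate 3 was the highest of its age. Cxcr2, which codes for the receptor of CXCL1 and CXCL2, stood at 1409 to 1991 CPM at 20 weeks (median 1739) and 771.9 to 1716 CPM at 26 weeks (median 1158) and was not called (log2FC -0.49 ± 0.19 SE, adjusted p = 0.0826).

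Some cell cycle genes rose, most of them from few counts. Of 30 tested, 10 were called higher and none lower, with a median log2 fold change of 1.66, also when genes at 0 counts were set to their bounds. Top2a, the gene for topoisomerase IIα of dividing cells, had 0 counts in all 6 mice at 20 weeks and 325 counts at 26 weeks, present in 6 of 6 mice at 3.00 to 7.30 CPM. Taking 3 counts over the 6 libraries as the limit, it was at least 122-fold higher. Cdk1, which codes for the kinase that starts mitosis, had 3 counts at 20 weeks and 335 at 26 weeks. Of the called genes 5 had at most 3 counts over the 6 mice of 20 weeks; these are given as a description, and the count of calls is no support for a change of the list. The chromatin genes H2afz (log2FC 1.21 ± 0.21 SE, adjusted p = 0.000738) and Hmgb2 (log2FC 0.77 ± 0.13 SE, adjusted p = 0.00068) were well counted, and Hmgb2 stood between 421.5 and 530.3 CPM at 20 weeks (median 439.4) and between 585.1 and 965.4 CPM at 26 weeks (median 823.2) without overlap. The proliferation marker Mki67 had 191 counts at 20 weeks and 401 at 26 weeks and was not called (adjusted p = 0.5 in edgeR), and it is named after its values were seen. With the filter of 10 CPM in 6 libraries 3 of these genes were called, since fewer were tested, and Hmgb2 was not called after the correction for exon length, unless the libraries were kept at their scale. The calls were 6 of 30 without 26 week replicate 6. In that library the erythroid markers summed to 280 CPM, against at most 38.1 CPM in the other 26 week mice, and their part in the calls was not tested.

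Many ribosomal protein and oxidative phosphorylation genes rose. Of 79 tested genes for cytosolic ribosomal proteins 48 were called higher (60.8%) and none lower, with a median log2 fold change of 1.75. All rows of this list together took only 0.0796 to 0.155% of the counts at 20 weeks and 0.127 to 0.36% at 26 weeks, with overlap. In 14 of the 79 every 26 week library lay above every 20 week library, and 3.69% of all tested genes separated in this way. Of 78 nuclear genes of oxidative phosphorylation 48 were called higher (61.5%) and 1 lower, with a median of 1.33. Rps29, which codes for a protein of the small ribosomal subunit, stood at 1.46 to 4.04 CPM at 20 weeks (median 2.80) and 4.87 to 53 CPM at 26 weeks (median 24.1) (log2FC 3.22 ± 0.51 SE, adjusted p = 0.000456). The ages did not overlap. Rpl7, Rpl7a and Rpl9, which code for large subunit proteins, rose by log2 fold changes of 1.65, 1.81 and 1.91, each without overlap. Cox6c, a gene of cytochrome c oxidase, stood between 6.83 and 14.3 CPM at 20 weeks (median 12) and between 20.9 and 105 CPM at 26 weeks (median 55.7), without overlap (log2FC 2.36 ± 0.37 SE, adjusted p = 0.000456). Atp5j of ATP synthase (log2FC 1.52 ± 0.25 SE, adjusted p = 0.000623), Cox5a of cytochrome c oxidase (log2FC 1.57 ± 0.26 SE, adjusted p = 0.000715) and Ndufs4 of complex I (log2FC 1.73 ± 0.30 SE, adjusted p = 0.000881) rose as well. The called lower gene was Sdha, for a subunit of succinate dehydrogenase, named after its values were seen (log2FC -0.75 ± 0.20 SE, adjusted p = 0.0142). Among the 26 week mice replicate 5 was the highest in 37 of the 48 ribosomal and 32 of the 48 oxidative phosphorylation genes, and replicate 4 was the lowest in 41 and 39 of them. These genes were short, with median exon lengths of 1770 and 1779 bases against 4209 for tested genes. After the correction for exon length 26 genes of each list were called higher, with medians of 1.21 and 0.79, and with libraries kept at their scale 43 and 42. Processed pseudogenes share sequence with many ribosomal protein genes, so the assignment of their reads is uncertain.

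Transcripts of the mitochondrial genome and rows of ribosomal RNA rose further. All 10 tested mitochondrial transcripts were called higher, with a median of 2.74. The cytochrome b gene mt-Cytb stood at 17.3 to 42.9 CPM at 20 weeks (median 32.4) and 95.2 to 255.2 CPM at 26 weeks (median 215.5), without overlap (log2FC 2.58 ± 0.28 SE, adjusted p = 4.94e-05). The genes mt-Co1 for a cytochrome c oxidase subunit (log2FC 2.41 ± 0.29 SE, adjusted p = 9.91e-05) and mt-Nd4 for a complex I subunit (log2FC 2.96 ± 0.37 SE, adjusted p = 0.000119) also separated the ages. All 5 ribosomal RNA rows were called higher. Of these, 2 (mt-Rnr1 and mt-Rnr2) are also among the 10 mitochondrial transcripts, so the counts of the lists are not separate. Rn18s-rs5 stood between 4.32 and 41.1 CPM at 20 weeks (median 14) and between 134.3 and 3162 CPM at 26 weeks (median 732.1) (log2FC 5.87 ± 0.76 SE, adjusted p = 0.000124), Yam1 rose (log2FC 4.55 ± 0.65 SE, adjusted p = 0.000236), and mt-Rnr2, the large mitochondrial ribosomal RNA, rose (log2FC 2.01 ± 0.39 SE, adjusted p = 0.00185). Lars2, the gene for mitochondrial leucyl-tRNA synthetase, stood at 65.3 to 309.7 CPM at 20 weeks (median 172.1) and 313.1 to 7259 CPM at 26 weeks (median 1691), and rose (log2FC 3.94 ± 0.60 SE, adjusted p = 0.000367). In Rn18s-rs5, Yam1 and Lars2 the lowest and highest mice were the same: replicates 2 and 6 at 20 weeks and replicates 4 and 5 at 26 weeks. Ribosomal RNA is not polyadenylated, and whether its share differed through the cells or the preparation cannot be told apart. These rows, Lars2 and the mitochondrial transcripts were left out in a further fit, which called 1602 genes (802 higher, 800 lower).

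Mgst2 and AA467197 were also among the 12 largest rises. Mgst2, which codes for a microsomal glutathione transferase able to make leukotriene C4, stood between 3.17 and 23.1 CPM at 20 weeks (median 9.47) and between 26 and 160.9 CPM at 26 weeks (median 81.4), without overlap (log2FC 2.83 ± 0.50 SE, adjusted p = 0.000935). AA467197, a small protein gene whose transcript gives rise to miR-147, stood at 10.4 to 27.9 CPM at 20 weeks (median 18.8) and 43 to 227.3 CPM at 26 weeks (median 124.2), without overlap (log2FC 2.75 ± 0.37 SE, adjusted p = 0.000167). Outside those 12, C3, the central complement component, rose from a median of 212.3 to 631.2 CPM (log2FC 1.55 ± 0.23 SE, adjusted p = 0.00027).

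Many immediate early genes fell. These genes are switched on within minutes by many stimuli, and 13 of 23 tested were called lower (56.5%, against 7.98%) and none higher, with a median of -0.87. Junb, which codes for an AP-1 transcription factor, stood between 710.8 and 1451 CPM at 20 weeks (median 1284) and between 225 and 665.2 CPM at 26 weeks (median 358). The ages did not overlap (log2FC -1.60 ± 0.27 SE, adjusted p = 0.000661). Jund, for another AP-1 factor, stood at 480.5 to 1154 CPM at 20 weeks (median 791.3) and 146 to 626.5 CPM at 26 weeks (median 307.1), with overlap (log2FC -1.34 ± 0.30 SE, adjusted p = 0.00492). Klf6, for a zinc finger factor, stood between 1061 and 1881 CPM at 20 weeks (median 1774) and between 771.7 and 1289 CPM at 26 weeks (median 975.3) (log2FC -0.75 ± 0.16 SE, adjusted p = 0.00313), where 20 week replicate 1 was low. Btg2, an antiproliferative gene, stood at 322.4 to 615.4 CPM at 20 weeks (median 437.6) and 244.6 to 348 CPM at 26 weeks (median 269.9) (log2FC -0.69 ± 0.16 SE, adjusted p = 0.00524), with overlap. Egr1, a zinc finger factor gene among the 12 largest falls, stood between 20.7 and 129.8 CPM at 20 weeks (median 47) and between 4.77 and 32.5 CPM at 26 weeks (median 9.25) (log2FC -2.16 ± 0.60 SE, adjusted p = 0.0184), and its call was lost without 20 week replicate 4 or without 26 week replicate 1 (highest adjusted p = 0.062). In 11 of the 13 called genes 26 week replicate 3 was the highest of its age. Corrected for exon length, 15 of the 23 were called lower. Heat shock chaperone genes went both ways: Hspa8 fell (log2FC -1.19 ± 0.15 SE, adjusted p = 0.000124) and Hsp90ab1 rose (log2FC 0.92 ± 0.16 SE, adjusted p = 0.001), both without overlap, and of 14 tested 1 was higher (7.14%) and 2 lower (14.3%), with 1 lower in 8 of the 18 fits that left out a library.

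The sequence TGACGTCA, the full cyclic AMP response element that CREB factors bind, was present within 250 bases before the start of 2 of the 12 called lower immediate early genes with a promoter entry (Btg2 and Dusp1), and in 3.19% of tested genes, 2.98% of called lower genes and 2.37% of called higher genes. It was also picked after the matches of the 13 motifs were seen. Both windows of 100 bases are shown 5′ to 3′ on the gene's strand with the element in capitals:

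Btg2: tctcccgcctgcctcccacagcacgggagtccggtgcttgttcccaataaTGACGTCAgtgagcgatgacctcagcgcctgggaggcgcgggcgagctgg
Dusp1: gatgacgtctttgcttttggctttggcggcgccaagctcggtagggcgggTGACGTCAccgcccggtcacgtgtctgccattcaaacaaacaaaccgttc

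The Btg2 window lies at chr1:134079272-134079371 (minus strand) and the Dusp1 window at chr17:26508566-26508665 (minus strand). Dusp1, which codes for a phosphatase that inactivates MAP kinases, was named after its match was seen and stood at 2767 to 8731 CPM at 20 weeks (median 4351) and 743.4 to 4217 CPM at 26 weeks (median 1726), with overlap (log2FC -1.31 ± 0.37 SE, adjusted p = 0.0207), a call lost without 20 week replicate 4 or without 26 week replicate 1 or 5 (highest adjusted p = 0.0606).

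Many cytokine receptor and JAK-STAT genes fell. Of 33 tested, 17 were called lower (51.5%) and none higher, with a median of -0.57. Il17ra, which codes for the interleukin 17 receptor chain, stood between 534.5 and 810.3 CPM at 20 weeks (median 663) and between 165.1 and 474.9 CPM at 26 weeks (median 221.1), without overlap (log2FC -1.34 ± 0.22 SE, adjusted p = 0.000622). Stat6, which carries signals of interleukins 4 and 13, stood at 458.1 to 776.3 CPM at 20 weeks (median 630.3) and 107.5 to 368.3 CPM at 26 weeks (median 204.3), without overlap (log2FC -1.41 ± 0.24 SE, adjusted p = 0.000766). Socs3, an inhibitor of signals from the G-CSF receptor, stood between 208.1 and 462.6 CPM at 20 weeks (median 266.4) and between 41.9 and 141.2 CPM at 26 weeks (median 76.1), without overlap (log2FC -1.82 ± 0.33 SE, adjusted p = 0.00103). Il13ra1, for an interleukin 13 receptor chain, stood at 172 to 584.7 CPM at 20 weeks (median 409.7) and 55.2 to 200.5 CPM at 26 weeks (median 84.5), with overlap through 20 week replicate 1 (log2FC -1.97 ± 0.37 SE, adjusted p = 0.00129). In the 17 called genes 20 week replicate 4 was the highest of its age in 13 and 26 week replicate 3 in 11. The growth factor gene Csf1, for M-CSF, stood between 248.3 and 631.5 CPM at 20 weeks (median 289.9) and between 36.5 and 220.3 CPM at 26 weeks (median 69.3), without overlap (log2FC -1.99 ± 0.41 SE, adjusted p = 0.00274). Of 14 tested cytokine and chemokine genes, Csf1 and Il1rn, the interleukin 1 receptor antagonist gene (log2FC -0.68 ± 0.17 SE, adjusted p = 0.0108), were called lower (14.3%) and none higher (4 lower without 26 week replicate 3).

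Genes known as suppressive or anti-inflammatory were more often called lower than higher. Of 29 tested, 13 were called lower (44.8%) and 2 higher, with a median of -0.71. Besides Stat6 and Socs3 the called lower genes with the smallest p were Stat3 (log2FC -0.80 ± 0.15 SE, adjusted p = 0.00119) and Il4ra, for the interleukin 4 receptor chain (log2FC -1.35 ± 0.26 SE, adjusted p = 0.00186). Anxa1 and Lgals3 were the called higher genes, named after their values were seen: Anxa1, for annexin A1, stood at 6373 to 15035 CPM at 20 weeks (median 10024) and 16363 to 24474 CPM at 26 weeks (median 21141) (log2FC 0.96 ± 0.20 SE, adjusted p = 0.0025), and Lgals3, for galectin 3, rose (log2FC 0.99 ± 0.22 SE, adjusted p = 0.00406). Both lost their calls after the correction for exon length, and kept them with the libraries at their scale. The list shares members with the JAK-STAT and immediate early lists, so the counts are not separate. Without 20 week replicate 4, 8 of the 29 were called lower.

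Most of the called sensors of microbes and danger were lower. Of 32 tested Toll-like receptors, nucleic acid sensors and their partners, 7 were called lower (21.9%) and none higher, with a median of -0.51. The lower calls were 4 without 26 week replicate 1 or 6, and up to 3 of the list were called higher in an alternative fit. Tlr4, the receptor for lipopolysaccharide, stood between 87.3 and 213.4 CPM at 20 weeks (median 163.4) and between 21.4 and 78.1 CPM at 26 weeks (median 40.1), without overlap (log2FC -1.79 ± 0.28 SE, adjusted p = 0.000423). Tlr13, the receptor for bacterial ribosomal RNA, stood at 509.8 to 922.6 CPM at 20 weeks (median 680.9) and 123 to 406 CPM at 26 weeks (median 189.2), without overlap (log2FC -1.60 ± 0.28 SE, adjusted p = 0.000986). Unc93b1, which codes for the chaperone of endosomal Toll-like receptors, stood between 496.4 and 787.8 CPM at 20 weeks (median 637.6) and between 152.7 and 482.1 CPM at 26 weeks (median 297.6), without overlap (log2FC -1.12 ± 0.21 SE, adjusted p = 0.00129). Myd88, the adaptor gene of most of these receptors, fell with overlap (log2FC -0.75 ± 0.17 SE, adjusted p = 0.00603). In the interleukin 1 and inflammasome list 4 of 17 were lower (23.5%) and 1 higher (5.88%), with a median of -0.34. Nlrp3, which codes for an inflammasome sensor, stood at 137.1 to 361.8 CPM at 20 weeks (median 214.3) and 27.7 to 119 CPM at 26 weeks (median 57.1), without overlap (log2FC -1.87 ± 0.34 SE, adjusted p = 0.00108). Nlrp12, for a related receptor, stood between 348.4 and 480.4 CPM at 20 weeks (median 367.1) and between 76.7 and 203.5 CPM at 26 weeks (median 89.8), without overlap (log2FC -1.65 ± 0.25 SE, adjusted p = 0.000367). Il1rap, the shared chain of interleukin 1 family receptors, stood at 133 to 479 CPM at 20 weeks (median 384.7) and 50.5 to 169 CPM at 26 weeks (median 70.1), with overlap through 20 week replicate 1 (log2FC -2.04 ± 0.30 SE, adjusted p = 0.000336). The adaptor gene Pycard was the called higher gene, at few counts (medians of 3.13 and 17.3 CPM), and the call was lost without 20 week replicate 2 or 4 or without 26 week replicate 1, 2 or 6 (highest adjusted p = 0.062). Among 27 tested NF-kB pathway genes and targets 4 were lower (14.8%) and none higher, with a median of -0.79: Birc3 (medians of 149.5 and 85.5 CPM, adjusted p = 0.00227), Bcl3 (log2FC -0.96 ± 0.22 SE, adjusted p = 0.00501), Rela (log2FC -0.79 ± 0.19 SE, adjusted p = 0.0072) and Nfkb2 (log2FC -1.23 ± 0.30 SE, adjusted p = 0.0075). Without 26 week replicate 4, 7 were called lower.

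Interferon-inducible genes showed no common direction. Of 46 tested type I interferon targets 6 were called higher (13%) and 3 lower (6.52%), with a median of -0.25, and after the correction for exon length 5 were higher and 16 lower (6 and 4 with the libraries kept at their scale). The lower calls of this list ranged from 0 (without 20 week replicate 4 or 26 week replicate 1, 2 or 5) to 8 (without 26 week replicate 3). Ifitm3, which codes for a membrane protein that restricts virus entry, stood between 200.8 and 290.6 CPM at 20 weeks (median 241.4) and between 354.8 and 1388 CPM at 26 weeks (median 793.9), without overlap (log2FC 1.71 ± 0.26 SE, adjusted p = 0.000367). Ifitm6, of the same family, stood at 127 to 605.8 CPM at 20 weeks (median 216.3) and 581.1 to 2381 CPM at 26 weeks (median 1443), with overlap (log2FC 2.32 ± 0.39 SE, adjusted p = 0.00068). Ifi27l2a rose from few counts (log2FC 1.81 ± 0.39 SE, adjusted p = 0.00372). Gbp9 and Irgm2, genes of GTPases induced by interferon gamma, fell. Gbp9 stood between 19.7 and 66.3 CPM at 20 weeks (median 37.4) and between 5.09 and 12.3 CPM at 26 weeks (median 11.2), without overlap (log2FC -2.01 ± 0.38 SE, adjusted p = 0.00144). Irgm2 stood at 44.3 to 108.6 CPM at 20 weeks (median 77.8) and 12.7 to 40.7 CPM at 26 weeks (median 26.1), without overlap (log2FC -1.54 ± 0.28 SE, adjusted p = 0.00112). Of 16 tested genes of that list 2 were lower (12.5%, and 4 genes without 20 week replicate 3) and 1 higher (6.25%). Of 9 tested genes of extracellular trap formation 2 were called higher (22.2%), H3f3a for histone H3.3 (log2FC 0.89 ± 0.18 SE, adjusted p = 0.00248) and Ncf1 for an oxidase subunit (log2FC 0.67 ± 0.19 SE, adjusted p = 0.0185), and neither call was kept after the correction for exon length, whereas both were with the libraries kept at their scale.

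Of 14 NADPH oxidase genes and partners 5 were called higher (35.7%) and none lower, with a median of 0.32. Cybb, which codes for the catalytic subunit gp91phox, stood between 767.7 and 2082 CPM at 20 weeks (median 1316) and between 2061 and 3933 CPM at 26 weeks (median 3022), with overlap (log2FC 1.15 ± 0.22 SE, adjusted p = 0.00132). Arhgdib, for an inhibitor that binds the GTPase RAC, was called higher (log2FC 0.91 ± 0.16 SE, adjusted p = 0.000986), as was Cyba, for p22phox (log2FC 0.76 ± 0.20 SE, adjusted p = 0.0135). Cybb and Cyba are also counted in the secondary granule list. After the correction for exon length none of the list was called higher, 3 were called lower and the median turned to -0.09, while with the libraries kept at their scale 4 were higher and none lower, with a median of 0.20.

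Surface receptors for chemoattractants split in both directions. Of 17 tested, 5 were higher (29.4%) and 5 lower (29.4%), with a median of -0.61. Fpr2, a formyl peptide receptor gene, stood at 136.2 to 235.4 CPM at 20 weeks (median 189.2) and 335.7 to 1127 CPM at 26 weeks (median 657.9), without overlap (log2FC 1.86 ± 0.25 SE, adjusted p = 0.000168). Ltb4r1, for the leukotriene B4 receptor and also counted in the secondary granule list, stood between 260.2 and 539.2 CPM at 20 weeks (median 343.9) and between 685 and 1148 CPM at 26 weeks (median 866.6), without overlap (log2FC 1.24 ± 0.19 SE, adjusted p = 0.000451). Without 20 week replicate 2 or 26 week replicate 1, 3 were higher. C5ar1, for the C5a receptor, stood at 2401 to 3997 CPM at 20 weeks (median 3535) and 1398 to 2358 CPM at 26 weeks (median 1781), without overlap and in the other direction (log2FC -0.93 ± 0.15 SE, adjusted p = 0.000456). Ptafr, for the receptor of platelet activating factor, fell with overlap (log2FC -1.12 ± 0.24 SE, adjusted p = 0.00309). Of 18 Fc and complement receptors 4 were lower (22.2%, and 7 genes without 26 week replicate 4) and 1 higher (5.56%), with a median of -0.28. Of 26 adhesion genes 6 were lower (23.1%) and 4 higher (15.4%, and 2 genes without 20 week replicate 4 or 6 or 26 week replicate 5), with a median of -0.45, and Cd33, for a sialic acid-binding inhibitory receptor, fell without overlap (log2FC -0.70 ± 0.15 SE, adjusted p = 0.00299). Of 10 C-type lectin receptor genes 2 rose (20.0%), both without overlap, Clec4a2 (log2FC 1.46 ± 0.19 SE, adjusted p = 0.000144) and Clec12a (log2FC 1.05 ± 0.18 SE, adjusted p = 0.00068), and 1 (10.0%), Clec7a, which codes for the β-glucan receptor dectin 1, was lower with overlap (log2FC -1.18 ± 0.36 SE, adjusted p = 0.0273), a call lost without 20 week replicate 4 or 6 or without 26 week replicate 1, 5 or 6 (highest adjusted p = 0.0665).

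Metabolic, cytoskeletal and lysosomal lists were divided. Of 22 genes of glycolysis and glucose uptake 8 were higher (36.4%) and 4 lower (18.2%), with a median of 0.03. The enzyme gene Gapdh stood between 612.6 and 863.5 CPM at 20 weeks (median 762.3) and between 1334 and 2351 CPM at 26 weeks (median 1798), without overlap (log2FC 1.25 ± 0.14 SE, adjusted p = 5.53e-05), and Tpi1, for triose phosphate isomerase, rose (log2FC 1.06 ± 0.19 SE, adjusted p = 0.000979). The lower calls were 7 without 26 week replicate 4. Slc2a3, for a glucose transporter, stood at 1240 to 1609 CPM at 20 weeks (median 1368) and 480.9 to 1149 CPM at 26 weeks (median 528.4), without overlap in the other direction (log2FC -1.12 ± 0.18 SE, adjusted p = 0.000553). Of 38 actin genes 11 were higher (28.9%), the myosin light chain gene Myl6 among them (log2FC 1.49 ± 0.23 SE, adjusted p = 0.000439), and 6 lower (15.8%). After the correction for exon length 1 was higher and 11 lower, and with the libraries kept at their scale 9 and 6. Only 3 actin genes were lower without 26 week replicate 1 or 6. Of 30 lysosomal genes 9 were lower (30.0%) and 4 higher, with a median of -0.46. The lower calls were 5 without 20 week replicate 4 or 26 week replicate 5, and 4 without 26 week replicate 6. Tfeb, for the transcription factor of lysosomal genes, was lower (log2FC -0.86 ± 0.18 SE, adjusted p = 0.00324). Of 29 iron and redox genes 5 were higher (17.2%) and 4 lower (13.8%): Slc40a1, which codes for the iron exporter ferroportin, stood between 1311 and 3439 CPM at 20 weeks (median 2560) and between 490.2 and 1498 CPM at 26 weeks (median 785.6), with overlap (log2FC -1.52 ± 0.25 SE, adjusted p = 0.000614), and Prdx5, for a peroxiredoxin, stood at 677.3 to 1247 CPM at 20 weeks (median 802.4) and 1312 to 3004 CPM at 26 weeks (median 2113), without overlap (log2FC 1.24 ± 0.21 SE, adjusted p = 0.000677). Of 28 genes of the unfolded protein response 5 were lower (17.9%), the chaperone gene Hspa5 among them (log2FC -0.93 ± 0.22 SE, adjusted p = 0.00767), and 1 higher (3.57%). Without 20 week replicate 2 or 26 week replicate 1, 5 or 6, the lower calls of that list were 3.

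**Figure D4:**
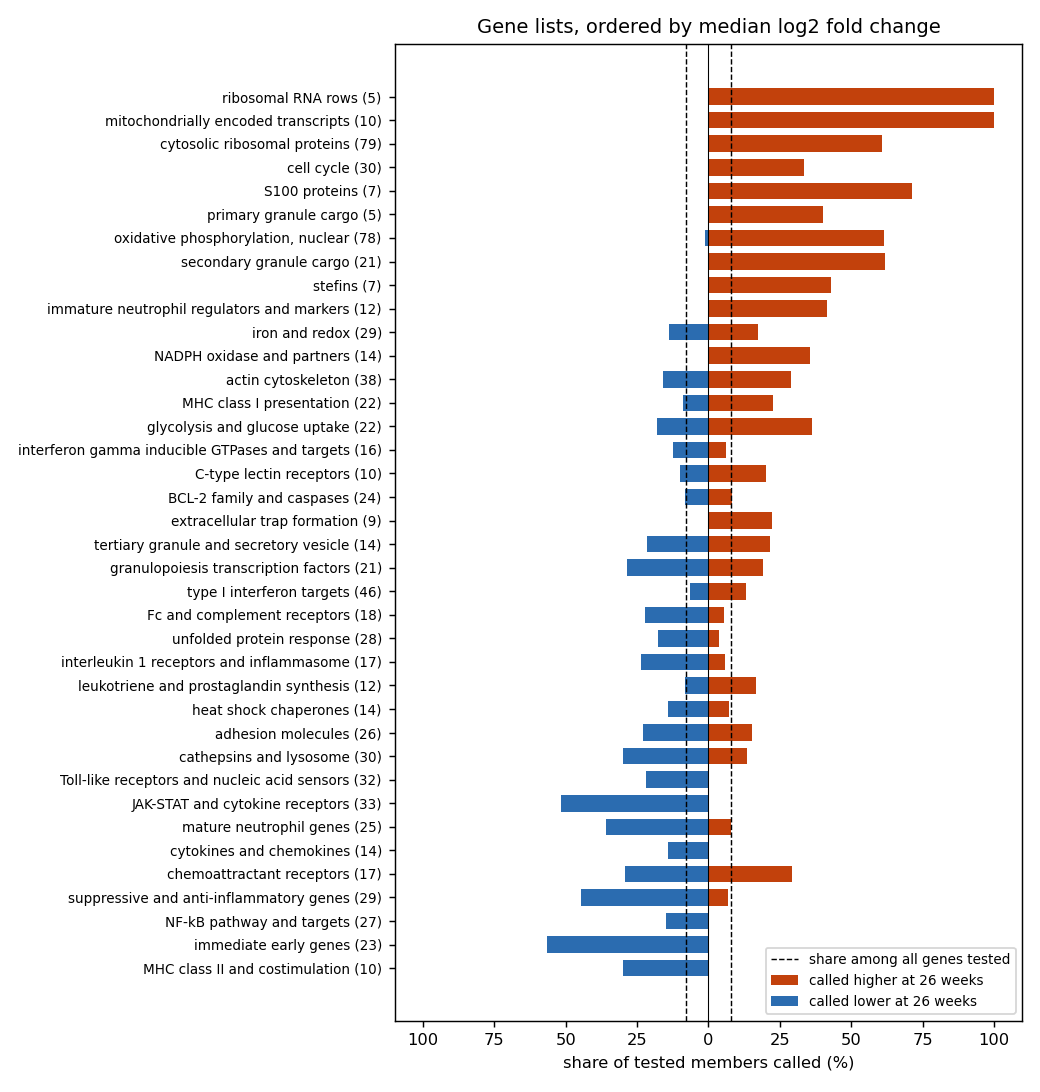
Bars give the share of tested members called higher (orange, to the right) or lower (blue, to the left) at 26 weeks, in percent, for each list with at least 5 tested members (number in parentheses), ordered by median log2 fold change; dashed lines mark the shares among all tested genes (8.03% and 7.98%). Ribosomal RNA rows and mitochondrially encoded transcripts (medians 4.39 and 2.74, with 2 genes shared) stand at the top, and MHC class II (-1.13) and immediate early genes (-0.87) at the bottom.

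The largest falls outside these lists were in genes of several functions. Thbd, which codes for thrombomodulin, a thrombin-binding protein of the cell surface, stood between 27.3 and 152.4 CPM at 20 weeks (median 93) and between 2.61 and 24.9 CPM at 26 weeks (median 9.09). The ages did not overlap (log2FC -3.13 ± 0.54 SE, adjusted p = 0.000798). Steap4, for a metalloreductase, stood at 263.3 to 886.9 CPM at 20 weeks (median 667.5) and 65.4 to 248.8 CPM at 26 weeks (median 119.5), without overlap (log2FC -2.21 ± 0.42 SE, adjusted p = 0.00159). Fgl2, for a fibrinogen-like protein, stood between 905.3 and 4419 CPM at 20 weeks (median 3641) and between 347.4 and 1531 CPM at 26 weeks (median 669.4), and only 20 week replicate 1 fell within the range of the 26 week mice (log2FC -2.07 ± 0.43 SE, adjusted p = 0.00285). Kcnj2, for an inward rectifier potassium channel, was lower with overlap (log2FC -2.01 ± 0.47 SE, adjusted p = 0.00574), as was Ivns1abp (medians of 50.1 and 10.5 CPM, adjusted p = 0.00304). Rab11fip5, for a partner of the recycling GTPase RAB11, was lower without overlap (log2FC -1.97 ± 0.39 SE, adjusted p = 0.00194).

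Markers of other cell types were followed by their summed level per library, since a sorted population can hold other cells. The 15 B cell markers summed to 462 to 2185 CPM at 20 weeks and 474 to 654 CPM at 26 weeks, and the 14 plasma cell markers to 349 to 3201 and 185 to 787 CPM. Ighm, for the immunoglobulin heavy chain μ, was the most abundant B cell marker over the 12 libraries. It stood at 173.7 to 1824 CPM at 20 weeks (median 885.5), where replicate 4 was the highest. At 26 weeks it stood at 64.8 to 264.2 CPM (median 125.4) (log2FC -2.63 ± 0.52 SE, adjusted p = 0.00194 in edgeR). Of the 7 tested B cell markers only this 1 was called. Cd37, named after its values were seen, was not called and went the other way, from a median of 310.7 to 390 CPM. At 26 weeks Cd37 (282.5 to 503.1 CPM) lay above Ighm in level. Among plasma cell markers, named after their values were seen, Jchain went from a median of 270.2 to 19.9 CPM and Xbp1 from 334.5 to 216 CPM. The median of Igkc went the other way, from 26.5 to 48.7 CPM. Igkc, Iglc1 and Iglc2 reached 1394, 1513 and 2046 CPM in their highest 20 week library, and 411.8, 0.829 and 0.725 CPM at 26 weeks. Monocyte and macrophage markers summed to 2255 to 4925 CPM at 20 weeks and 1935 to 2596 CPM at 26 weeks, and of the 8 tested 5 were called lower (3 without 20 week replicate 6) and 1 higher. Adgre1, for the macrophage marker F4/80, stood between 99.4 and 196.1 CPM at 20 weeks (median 148.1) and between 21.8 and 70.1 CPM at 26 weeks (median 36.1), without overlap (log2FC -1.76 ± 0.34 SE, adjusted p = 0.00184). Of the 17 monocyte and macrophage markers Mertk had 0 counts over the 6 libraries of 20 weeks and 53 over those of 26 weeks. C1qa, C1qb and Marco were among those with 0 at 26 weeks, and had only 2, 3 and 31 counts at 20 weeks. The 13 dendritic cell markers summed to 55.9 to 350 CPM and 22.5 to 72.7 CPM, and Cd74, the MHC class II invariant chain gene, stood at 19.6 to 173 CPM at 20 weeks (median 63.1) and 4.74 to 34.7 CPM at 26 weeks (median 14.3) (log2FC -2.33 ± 0.76 SE, adjusted p = 0.0421), a call lost without 20 week replicate 2, 4 or 6 or without 26 week replicate 1, 2, 4, 5 or 6 (highest adjusted p = 0.0992). The 16 T cell markers summed to 51.3 to 102.9 CPM at 20 weeks and 101 to 385 CPM at 26 weeks, nearly all of it Cd3d. Cd3d codes for a chain of the T cell receptor complex and stood between 49.8 and 101.3 CPM at 20 weeks (median 66.1). At 26 weeks it stood between 91.3 and 371.1 CPM (median 180.9) (log2FC 1.51 ± 0.29 SE, adjusted p = 0.00159 in edgeR). Cd3e, Cd8a, Cd28 and Cd5 had 0 counts at 20 weeks, and 68, 2, 34 and 2 counts over the 6 libraries of 26 weeks. Mast cell and basophil markers were at 1562 to 2841 and 886 to 2023 CPM, nearly all Hdc, the histidine decarboxylase gene that neutrophils also use (log2FC -0.63 ± 0.19 SE, adjusted p = 0.0256), a call lost without 20 week replicate 2 or without 26 week replicate 1, 2 or 5 (highest adjusted p = 0.0775), and Mcpt8, Ms4a2, Gata2, Cd200r3 and Prss34 had 0 counts at 26 weeks. Erythroid markers summed to at most 8.30 CPM at 20 weeks and 280 CPM at 26 weeks (replicate 6), and NK cell markers to at most 13.2 CPM at either age. The 13 neutrophil identity genes summed to 44931 to 109757 CPM at 20 weeks and 142009 to 285416 CPM at 26 weeks, with Ngp the most abundant. Of these 13 genes 8 were called higher and 1, Csf3r, was called lower, while Cxcr2, Mmp9 and Itgam were not called. The sum follows its most abundant granule genes and is no measure of the share of neutrophils. When immunoglobulin genes and all markers of other cells were left out, 1627 genes were called (852 higher, 775 lower). The part of other cells in single results was not tested.

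**Figure D5:**
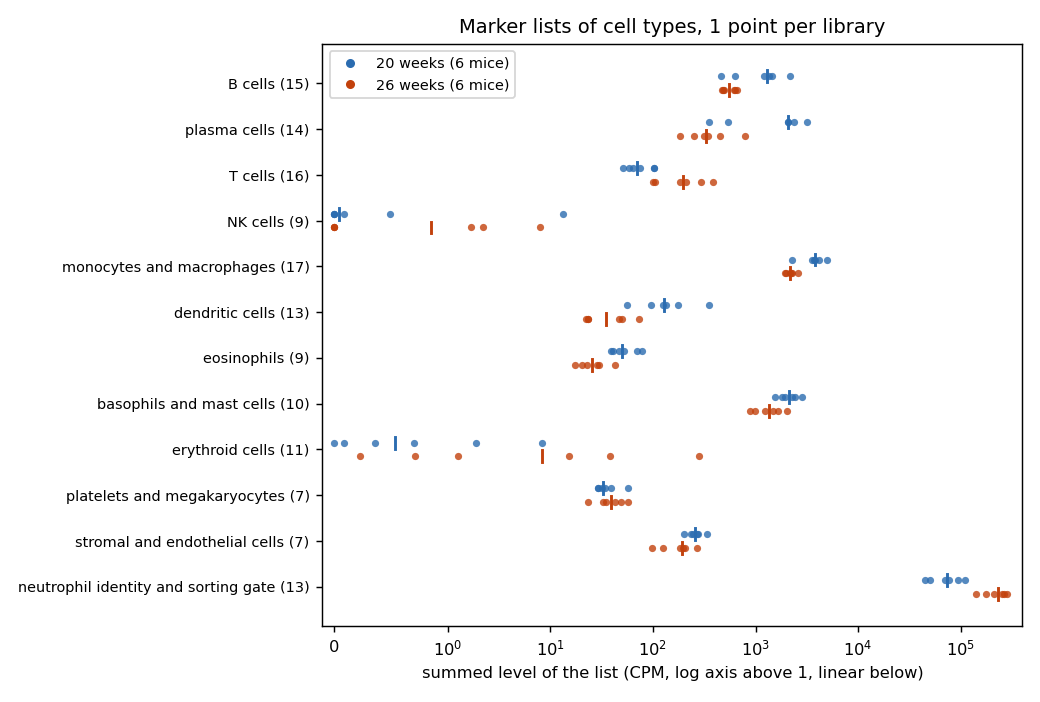
Points are the summed CPM of a marker list in 1 library (horizontal axis, logarithmic above 1 CPM and linear below), at 20 weeks (blue) and 26 weeks (orange), with vertical bars at the median of 6 mice and the number of genes in parentheses. Monocyte, dendritic cell and plasma cell sums are lower at the median at 26 weeks, and the neutrophil identity sum does not overlap between the ages (44931 to 109757 against 142009 to 285416 CPM).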

How the data were processed

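RNA was sequenced from sorted splenic neutrophils of 18 mice, 6 at each of 14, 20 and 26 weeks, with single reads of 100 nt, per the labels' protocols. The deposited table holds raw read counts per gene symbol, made by the authors with Trimmomatic 0.32, STAR 2.4.2a, HTSeq 0.6.1 and DESeq2 1.12.3, per the submitters' processing notes. The roles of the tools, the annotation and the strand setting are not stated in those notes. Without strand, reads of overlapping genes cannot be told apart. Counts are reads without molecular identifiers, so floors of 3 counts cover counting error only. Library depth ran from 5546624 to 17256379 counts.

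Genes passing filterByExpr were fitted in edgeR 4.0.16 (R 4.3.3) with TMM scaling and robust quasi-likelihood F tests, in 1 fit of 18 libraries with age as the only term, and 26 weeks was contrasted with 20 weeks. The filter and the scaling used all 18 libraries. Benjamini-Hochberg adjusted p under 0.05 over the 10104 genes tested was the threshold. The SE was taken as the log2 fold change over the square root of F. Levels are CPM, counts scaled to 1000000 per TMM-scaled library. On simulated data of this contrast with 9651 genes, 21 of 100 genes changed by a log2 of 1 and 67 of 100 changed by a log2 of 2 were recovered, and 1 unchanged gene was called. Pairs of mice of the same age differed by more than counting error (mean chi-square per gene from 27 to 150). Positions are GENCODE M21 gene models on GRCm38; 16809 symbols matched directly, 454 by synonym and 678 not at all. Promoter sequences are RefSeq's (GRCm38.p6).

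The members, gene lists and alternatives were chosen with earlier results of these data known. Genes named are the 12 called genes that rose most and the 12 that fell most, provided that log2 CPM averaged 4 or more over the 12 libraries and that 5 or more of the 6 mice of an age lay past the other age's median, plus up to 4 called members of each list by smallest p, and the identity genes. The ranks leave out mitochondrial transcripts, immunoglobulin segments, pseudogenes and predicted genes (Gm, Rik). The text gives a part of these, and some genes are not reported here. Alternatives were RLE and upper quartile scaling, DESeq2 1.42.0, limma-voom (limma 3.58.1) with quality weights, no filter or 10 CPM in 6 libraries, the 12 libraries alone, the replicate number as a block, other cells' genes left out, the library total as a covariate, a loess correction for exon length, and each library left out in turn. Added once the data had been seen were the fits without ribosomal RNA and mitochondrial rows, without immediate early and heat shock genes, without 20 week replicate 3 and 26 week replicate 5, and with the length correction at the original library scale.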

Additional observations from a re-analysis of the deposited data

Results flagged for a closer look

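A library was marked when the gap between it and the nearest other mouse of its age took more of the range of the 6 mice than Dixon's 95% critical value, which chance gives for about 5% of groups. Of 302 groups examined 19 were marked, and 5 of these fell on 20 week replicate 3 and 4 on 26 week replicate 4.

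Among the genes, 20 week replicate 3 was high for Mmp9 (9331 CPM against 6447 to 7082 in the other mice) and for Nlrp12 (480.4 against 348 to 387 CPM), and low for Tpi1 (38.8 against 73.5 to 91.3 CPM). Its median correlation with the other 20 week libraries was 0.756, and its platelet markers summed to 57.1 CPM against 28.9 to 39.4 CPM. At 26 weeks replicate 4 was high for Itgam (1822 against 796 to 1013 CPM), Kcnj2 (42.5 against 3.13 to 15.3 CPM) and Slc2a3 (1149 against 481 to 683 CPM), and its NK cell markers summed to 7.88 CPM against at most 2.19 CPM. At 20 weeks replicate 1 was low for Klf6 (1061 against 1687 to 1881 CPM) and C5ar1 (2401 against 3420 to 3997 CPM), and its erythroid markers summed to 8.30 CPM against at most 1.87 CPM.

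The other marked values were BC100530 in 20 week replicate 5 (39.2 CPM, others up to 19.6), Mki67 in 20 week replicate 6 (12.2 CPM, others up to 3.35), Ckap4 in 26 week replicate 3 (691 CPM, others from 931), Egr1 in 26 week replicate 5 (32.5 CPM, others up to 15.1), Kif22 in the same library (11.9 CPM, others up to 4.27), the NK cell sum of 20 week replicate 6 (13.2 CPM, others up to 0.493) and the erythroid sum of 26 week replicate 6 (280.1 CPM, others up to 38.1).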

How the results depend on the processing

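The 1617 calls were recomputed under each alternative. DESeq2 called 2553 genes (1419 higher, 1134 lower), and 1615 of the 1617 were among them. With the 20 and 26 week libraries alone, also in the filter and the scaling, 9436 genes were tested and 1120 were called (522 higher, 598 lower). The correction for exon length gave 364 higher and 1693 lower. Scaling by RLE (1672) or upper quartile (1652), quality weights (1923), no filter (1415) and 10 CPM in 6 libraries (1741) kept the total within 1.5 times. Leaving out 1 library gave 1141 to 1911 calls, 590 to 1028 higher and 551 to 914 lower, lowest without 26 week replicate 1. Of the 128 called genes named, 103 stayed called in each fit that tested them; 18 lost the call under the correction for exon length (5 with each library kept at its scale), 6 without 20 week replicate 3 and 26 week replicate 5, and 9 when 1 library was left out. Slpi turned to a log2 fold change of -0.16 under the correction for exon length. The cause of these changes was not tested.

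Replicate numbers did not pair the mice: deviations of same-numbered mice correlated between -0.0152 and 0.0133, and 0 of 6 correlated best with their own number. With the replicate number as a block 1573 genes were called (799 higher, 774 lower), and of the named genes 1 lost its call, Hdc.

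At 20 weeks 3 counts in a library correspond to 0.241 to 0.340 CPM, and lower levels were not detectable at this depth. Of the called genes 20 had 0 counts in the 6 libraries of 20 weeks, and 2923 genes had an unadjusted p under 0.05.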

Other observations

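Antigen presentation, lipid mediator and transcription factor lists are given here as values. Of 22 genes of MHC class I presentation 5 were called higher (22.7%) and 2 lower (9.09%), with a median log2 fold change of 0.11: B2m, the light chain gene, stood at 1233 to 2191 CPM at 20 weeks (median 2045) and 1275 to 4486 CPM at 26 weeks (median 3745) (log2FC 0.87 ± 0.22 SE, adjusted p = 0.0105 in edgeR), and Tapbp, for the peptide loading protein tapasin, stood between 482.9 and 1044 CPM at 20 weeks (median 650.2) and between 260.3 and 442.6 CPM at 26 weeks (median 333.5), without overlap and lower (log2FC -1.05 ± 0.18 SE, adjusted p = 0.000798 in edgeR). After the correction for exon length none of the list was called higher and 5 were lower, with a median of -0.37, and with the libraries kept at their scale 5 were higher and 2 lower, with a median of 0.01. B2m was called under the latter only. Without 26 week replicate 6, 3 were called higher, and without 20 week replicate 4 or 26 week replicate 1 or 5, 1 was called lower. Of 12 genes of leukotriene and prostaglandin synthesis 2 were higher (16.7%) and 1 lower (8.33%). Lta4h, which codes for the enzyme that makes leukotriene B4, stood at 260.6 to 678.6 CPM at 20 weeks (median 413.1) and 807.5 to 1294 CPM at 26 weeks (median 964.4), without overlap (log2FC 1.17 ± 0.25 SE, adjusted p = 0.00357 in edgeR), beside the rise of the receptor gene Ltb4r1. Pla2g7, for the enzyme that degrades platelet activating factor, stood between 1784 and 3472 CPM at 20 weeks (median 2884) and between 644.2 and 2369 CPM at 26 weeks (median 919), with overlap and lower (log2FC -1.24 ± 0.32 SE, adjusted p = 0.0119 in edgeR). Of 21 granulopoiesis transcription factors 4 were higher (19.0%) and 6 lower (28.6%), with a median of -0.22. Lmo4, for a LIM domain protein, stood at 58.4 to 122.2 CPM at 20 weeks (median 111.8) and 127 to 263.8 CPM at 26 weeks (median 215.2), without overlap (log2FC 0.99 ± 0.21 SE, adjusted p = 0.00278 in edgeR), a call lost under the correction for exon length but not with the libraries kept at their scale, and Rara, for the retinoic acid receptor α, stood between 283.1 and 591.8 CPM at 20 weeks (median 458.7) and between 139.7 and 384.9 CPM at 26 weeks (median 201.5), with overlap and lower (log2FC -1.02 ± 0.23 SE, adjusted p = 0.0044 in edgeR). Without 20 week replicate 2 or 26 week replicate 1, 2, 5 or 6, 3 of these factors were lower. Tnfsf14, for the ligand LIGHT, stood at 142.8 to 275.8 CPM at 20 weeks (median 182) and 89.4 to 139.9 CPM at 26 weeks (median 100.8), without overlap and lower (log2FC -0.91 ± 0.19 SE, adjusted p = 0.00318 in edgeR).

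Of the genes called, 20 had 0 counts in all 6 libraries of 20 weeks and none had 0 in those of 26 weeks. One of these, chosen after its values were seen, was Kif22, for a mitotic kinesin, which had 224 counts in 6 of 6 mice at 26 weeks, with replicate 5 the highest (11.9 CPM). With 3 counts over the 6 libraries of 20 weeks as the limit it was at least 84.3-fold higher, which is given as a description.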
